A study of Sus scrofa with 9 samples.

Results

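The genes described here make and handle leukotrienes and prostaglandins, measured as RNA in whole blood of pigs around an oral dose of azide. A probe was taken where its gene name in the scanner files was ALOX5AP, ALOX15, ALOX12, LTA4H, PTGS1 or PTGS2, or where its description named a lipoxygenase, a leukotriene or a prostaglandin G/H synthase. As written, these words found 5 probes, and 2 more that the files call FLAP were added because RefSeq lists FLAP as a synonym of ALOX5AP. That gave 7 of 43603 probes, for 5 genes: 2 probes for ALOX5AP, 1 for ALOX15, 1 for PTGS2 (PGHS-2 in the files), 1 for PTGS1, and 2 for PTGR1 (LTB4DH in the files), which came in through its description as a leukotriene B4 dehydrogenase. Of the 6 symbols, 4 have a probe. ALOX12 and LTA4H have none by name and were not analysed here, although RefSeq gives ALOX12 as an older synonym of the pig ALOX15 entry. A further 2 probes, found by description after the members, belong to PTGS2 and PTGR1 and are given beside them.

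The animals were male, specific-pathogen-free Clawn miniature pigs, a small laboratory breed, and the 3 groups were blood taken at 0 h (before feeding), 6 h and 24 h after azide, with 3 arrays each and 9 in all. All received azide by mouth at 300 µg/kg, stated as 0.01 of the LD50, with the 0 h blood drawn before it; the salt was not stated, and the age was recorded both as 7 months and as 7 weeks. There were no untreated pigs at 6 h or 24 h, so time, feeding and handling cannot be told apart from the dose. The arrays of a group shared a slide that held no other group, so the effect of the slide cannot be told apart from that of time, and since the labels do not tie arrays to animals, p-values measure only the spread between these samples.

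Arachidonic acid, cut from membrane lipids by phospholipase A2, is turned into leukotrienes and related products by lipoxygenases, or into prostaglandins and thromboxane by cyclooxygenases. ALOX5AP is the membrane protein that hands arachidonic acid to the leukotriene-forming lipoxygenase in neutrophils, monocytes and other myeloid cells. ALOX15 adds oxygen farther along the same fatty acid, and the pig enzyme was long known as the leukocyte form of another lipoxygenase. PTGS1 and PTGS2 are the constitutive and the inducible cyclooxygenase, and PTGR1 inactivates leukotriene B4 and some prostaglandins.

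What each signal reports is set by the 60-base probe on the array, so the members' probes are shown as the files give them, 5′ to 3′. Those that start at or before base 750 of the transcript record they were designed on are printed whole, and the others by their first 30 bases. They are shown because the probes of ALOX5AP and of PTGR1 lie at different places in 1 record, so that each pair measures its gene at 2 sites. The second ALOX5AP probe and the second PTGR1 probe start nearer the 5′ end of the record than the first, at bases 428 and 732 against 770 and 1114, and the PTGS2 probe lies far along its record, at base 3508.
ALOX5AP, first probe: gtttcttgacttgtcctgctttctgaagat
ALOX5AP, second probe: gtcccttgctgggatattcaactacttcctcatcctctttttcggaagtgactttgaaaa
ALOX15: aaatctcattatttcagagttcttcaatgg
PTGS2: ggttgagagtcagtaatagaagggcgtgta
PTGS1: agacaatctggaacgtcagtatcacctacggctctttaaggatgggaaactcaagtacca
PTGR1, first probe: catgatctaaaacccagtgcttgcaatgag
PTGR1, second probe: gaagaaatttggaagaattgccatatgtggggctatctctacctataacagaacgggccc

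Levels below are log2 of the background-subtracted signal minus the 75th percentile of the same array, and a level of 1 probe is never set against that of another. Changes are differences between the means of 2 times on this log2 scale, with the SE that limma gives (n = 3 arrays a group), and adjusted p-values are limma's with Benjamini-Hochberg adjustment over 19783 tested probes. The share of spots well above background ran between 39.9% and 46.6% before feeding and between 42.4% and 47.8% at 6 h. At 24 h it ran between 45.5% and 56.6%, with the highest share on 24 h replicate 3. In 6 h against before feeding, 5 of 19783 probes (0.0253%) passed the threshold of 0.05, and none passed in 24 h against before feeding or in 24 h against 6 h. By unadjusted p under 0.05 (limma), 1052 probes (5.32%) were higher and 1693 (8.56%) lower in 24 h against before feeding, and 1576 were higher and 2694 (13.6%) lower in 24 h against 6 h.

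ALOX5AP had the highest values of its own range at 6 h on both of its probes, 3.85-fold and 4.72-fold above the mean before feeding, and lay near the starting level at 24 h. The first probe read 7.34, 7.69 and 7.55 before feeding, 9.20, 8.66 and 10.56 at 6 h, and 7.44, 7.86 and 8.07 at 24 h. All 3 arrays at 6 h lay above all arrays of the other times, and 6 h replicate 3 lay highest. The group means were 7.53 ± 0.17 before feeding, 9.47 ± 0.98 at 6 h and 7.79 ± 0.32 at 24 h (SD, n = 3 each), so the arrays at 6 h also spread most.

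The difference of ALOX5AP in 6 h against before feeding was 1.95 ± 0.44 (SE), or 3.85-fold, with a 95% interval of 0.98 to 2.91. It did not pass (adjusted p = 0.0757, limma), while the unadjusted p was 0.00104 and 98.6% of the tested probes had a smaller or more negative difference. At 24 h the difference from before feeding was 0.26 (95% interval -0.70 to 1.23, adjusted p = 0.816, limma), and in 24 h against 6 h it was -1.68 (95% interval -2.64 to -0.72, adjusted p = 0.112, limma). The call at 6 h changed with the arrays kept: without 6 h replicate 2 the difference was 2.35 and passed (adjusted p = 0.0221, limma), and without 6 h replicate 3 it was 1.40 (adjusted p = 0.2, limma). Without 6 h replicate 2 the difference in 24 h against 6 h was -2.09 and passed as well (adjusted p = 0.0298, limma), and without 6 h replicate 3 it was -1.14 (adjusted p = 0.348, limma). Leaving out 6 h replicate 2 raised the calls over the whole array. Of all 19783 tested probes, 2396 then passed in 6 h against before feeding (1443 higher) and 1767 in 24 h against 6 h (475 higher).

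The second ALOX5AP probe followed the first. It read 4.41, 5.09 and 5.16 before feeding, 6.83, 5.85 and 8.71 at 6 h, and 4.98, 5.26 and 5.81 at 24 h. Its difference in 6 h against before feeding was 2.24 ± 0.60 (SE), or 4.72-fold (adjusted p = 0.084, limma), and in 24 h against before feeding it was 0.46 (adjusted p = 0.762, limma). Over the 9 arrays the 2 probes had a Pearson correlation of 0.984, and of 0.982 after each group's mean was taken out.

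ALOX15 had nearly the same course. Its probe read 5.70, 5.57 and 6.03 before feeding, 7.19, 6.80 and 9.14 at 6 h, and 5.84, 5.97 and 6.23 at 24 h. Again all arrays at 6 h lay above all others, and 6 h replicate 3 stood well above the other 2. Group means were 5.77 ± 0.24 before feeding, 7.71 ± 1.26 at 6 h and 6.01 ± 0.20 at 24 h (SD, n = 3 each).

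In 6 h against before feeding ALOX15 differed by 1.94 ± 0.51 (SE), or 3.84-fold, with a 95% interval of 0.81 to 3.08, and did not pass (adjusted p = 0.0811, unadjusted p = 0.00321, limma). The value at 24 h differed from that before feeding by 0.25 (95% interval -0.89 to 1.38, adjusted p = 0.859, limma), and in 24 h against 6 h by -1.70 (95% interval -2.83 to -0.56, adjusted p = 0.124, limma). Its call also changed with the arrays kept, with 2.40 (adjusted p = 0.0271, limma) without 6 h replicate 2 and 1.23 (adjusted p = 0.204, limma) without 6 h replicate 3. The 24 h against 6 h difference was -2.15 without 6 h replicate 2 and passed (adjusted p = 0.0403, limma), and -0.98 without 6 h replicate 3 (adjusted p = 0.348, limma). As given for ALOX5AP, 2396 and 1767 of all 19783 tested probes passed in these comparisons without 6 h replicate 2.

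The differences of ALOX5AP and ALOX15 from their means before feeding were of like size on each array. On the 6 h arrays they were 1.67, 1.14 and 3.03 for ALOX5AP, and 1.42, 1.03 and 3.38 for ALOX15. Taken within each array, ALOX5AP minus ALOX15 on this scale had an SD of 0.314 before feeding and averaged 0.003 ± 0.311 at 6 h and 0.017 ± 0.162 at 24 h (SD, n = 3 each). The Pearson correlation of the pair over 9 arrays was 0.979, Spearman's rho was 0.867, and Pearson's r within groups was 0.941, all as descriptions over arrays that share their RNA and scaling.

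**Figure D1:**
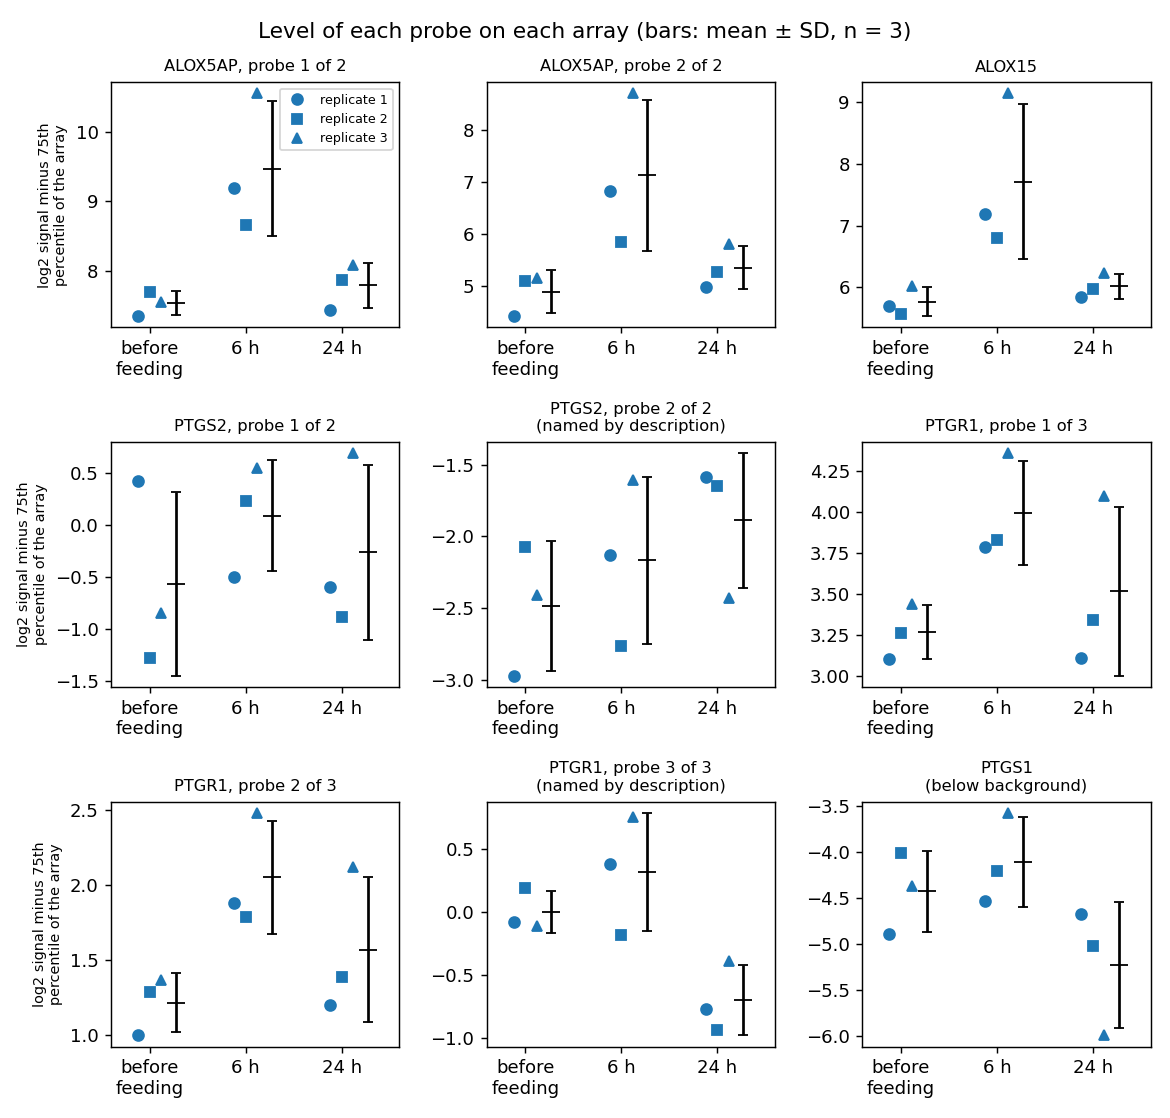
Each panel shows 1 probe, with the 3 times on the x axis and log2 signal minus the array's 75th percentile on the y axis, whose range differs between panels. Points are single arrays, marked by replicate number, and bars are means ± SD (n = 3). The ALOX5AP and ALOX15 arrays at 6 h all lie above those of the other times, the PTGS2 groups overlap, and the PTGS1 panel shows signal that was not well above background on any array.

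PTGR1, which breaks down leukotriene B4, was higher by less at 6 h. Its first probe read 3.11, 3.26 and 3.44 before feeding, 3.79, 3.83 and 4.36 at 6 h, and 3.11, 3.34 and 4.10 at 24 h. The arrays at 6 h all lay above those before feeding, and those at 24 h overlapped both. Its difference in 6 h against before feeding was 0.73 ± 0.32 (SE), or 1.66-fold, with a 95% interval of 0.02 to 1.43 (adjusted p = 0.186, limma). By 24 h the difference from before feeding was 0.25 (adjusted p = 0.758, limma), and -0.04 without 24 h replicate 3, the one high array at that time.

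The second PTGR1 probe read 1.00, 1.29 and 1.36 before feeding, 1.88, 1.79 and 2.48 at 6 h, and 1.20, 1.39 and 2.12 at 24 h. As on the first probe, replicate 3 read highest at each time. It differed by 0.83 ± 0.32 (SE) in 6 h against before feeding (adjusted p = 0.151, limma) and by 0.35 in 24 h against before feeding (adjusted p = 0.644, limma). A further PTGR1 probe, found through a description as a prostaglandin reductase, did not follow them. It read -0.07, 0.19 and -0.11 before feeding, 0.39, -0.18 and 0.75 at 6 h, and -0.77, -0.94 and -0.39 at 24 h. Relative to the first probe on the same array and to the mean before feeding, it averaged -0.408 ± 0.311 at 6 h and -0.946 ± 0.310 at 24 h (SD, n = 3 each). Its own difference in 6 h against before feeding was 0.32 ± 0.31 (adjusted p = 0.532, limma). In 24 h against before feeding it was -0.70 (adjusted p = 0.352, unadjusted p = 0.0444, limma). The 24 h arrays of this probe all lay below those before feeding, as in 19% of all tested probes. They also lay below those at 6 h, as in 16.5%, with a difference of -1.02 (adjusted p = 0.124, limma). The probes of this gene thus disagree in sign in 24 h against before feeding.

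PTGS2, the inducible cyclooxygenase, showed no separation between the times. Its probe read 0.41, -1.27 and -0.84 before feeding, -0.50, 0.22 and 0.54 at 6 h, and -0.60, -0.88 and 0.69 at 24 h. The array before feeding with replicate number 1 read higher than 2 of the 3 arrays at 6 h. Group means were -0.57 ± 0.88 before feeding, 0.09 ± 0.54 at 6 h and -0.27 ± 0.84 at 24 h (SD, n = 3 each).

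The PTGS2 difference in 6 h against before feeding was 0.66 ± 0.52 (SE), with a 95% interval of -0.50 to 1.81 (adjusted p = 0.446, limma). It was 1.15 without the array before feeding with replicate number 1 (adjusted p = 0.296, limma) and 0.30 without that with replicate number 2 (adjusted p = 0.736, limma). At 24 h the difference from before feeding was 0.30 (95% interval -0.85 to 1.46, adjusted p = 0.824, limma), and it was -0.05 without the array before feeding with replicate number 2 and -0.17 without 24 h replicate 3. A second PTGS2 probe, described as a cyclooxygenase fragment, was well above background on 1 array before feeding, 2 arrays at 6 h and all 3 at 24 h. Probes were tested where well above background on all arrays of some group. This one entered only through 24 h, where its mean was highest, so its 24 h difference cannot be read apart from that filter. Its differences were 0.32 ± 0.39 (adjusted p = 0.628, limma) in 6 h against before feeding and 0.60 (adjusted p = 0.51, limma) in 24 h against before feeding. PTGS1, the constitutive cyclooxygenase, was not well above background on any of the 9 arrays and was not tested.

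**Figure D2:**
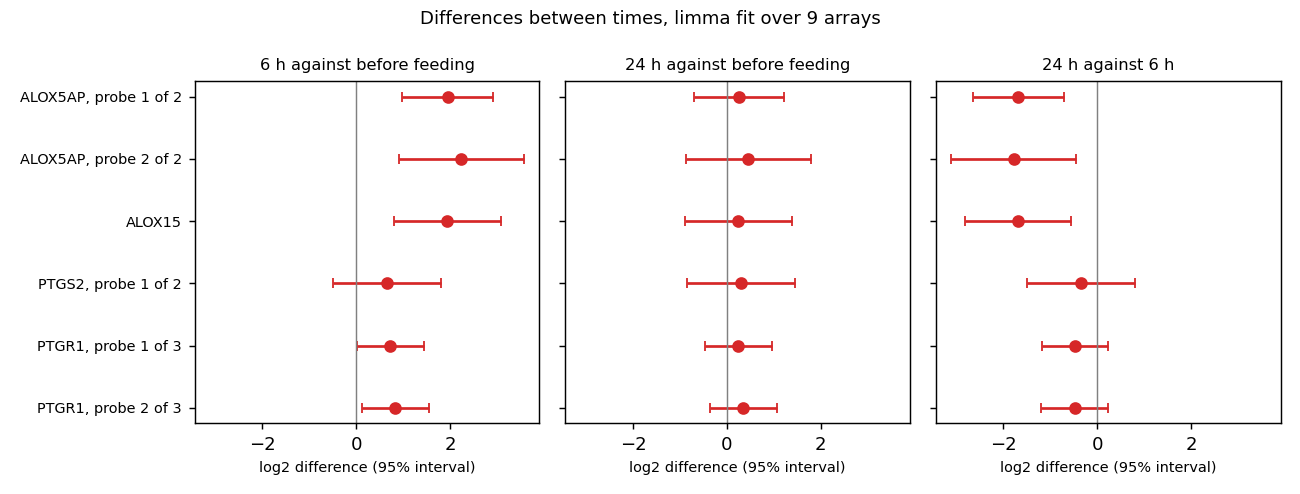
The x axis of each panel is the log2 difference between 2 times, and each row is 1 of the 6 tested member probes, with points for the limma estimate over 9 arrays and bars for its 95% interval, which is not adjusted for the number of probes. In 6 h against before feeding the intervals of both ALOX5AP probes, ALOX15 and both PTGR1 probes lie above 0 and that of PTGS2 crosses it. In 24 h against before feeding all 6 cross 0. In 24 h against 6 h those of ALOX5AP and ALOX15 lie below 0. With arrays centred on spike-in spots, PTGR1 and PTGS2 turn positive there (0.30 and 0.43), below the median of all tested probes (0.69).

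Over the 6 tested member probes, none passed in any comparison (limma), against 0.0253% of all tested probes in 6 h against before feeding and 0% in the other comparisons. At an unadjusted p under 0.05 (limma), 5 of 6 were higher in 6 h against before feeding, where 14.7% of all tested probes were. In the same comparison 5 of 6 had groups that did not overlap, with 6 h higher, against 16% of all tested probes, and the exception was PTGS2. These 5 probes stand for 3 genes. All 6 were higher in value, as were 52.6% of all tested probes, and their median difference was 1.39 against 0.05 over all tested probes.

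In 24 h against before feeding none of the 6 had groups that did not overlap, where 7.5% of all tested probes did with 24 h higher and 19% with 24 h lower, and none had an unadjusted p under 0.05. All 6 were higher in value, as were 49.1% of all tested probes, with a median of 0.28 against -0.01 over all tested probes. Between 24 h and 6 h, the probes of ALOX5AP and ALOX15, 3 of 6, had groups that did not overlap with 24 h lower, against 16.5% of all tested probes, and the same 3 had an unadjusted p under 0.05, against 13.6%. While 43.7% of all tested probes had a positive difference there, all 6 differences had a negative sign. Their median was -1.08, against -0.09 over all tested probes. With arrays centred on the spike-in spots, the differences of PTGR1 (first probe) and PTGS2 were positive (0.30 and 0.43). The median of all tested probes was then 0.69, and relative to it they were -0.39 and -0.26. These comparisons share arrays with each other.

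The scaling of the arrays bore on the size of the calls. Centring on the spike-in spots moved the median difference of all tested probes to 0.27 in 6 h against before feeding, 0.99 in 24 h against before feeding and 0.69 in 24 h against 6 h. With that centring ALOX5AP differed by 2.17 (adjusted p = 0.0416, limma) and ALOX15 by 2.17 (adjusted p = 0.0493, limma) in 6 h against before feeding, and both passed. Of all 19783 tested probes, 613 passed in that comparison, 607 of them higher. Relative to the median of all probes, the ALOX5AP and ALOX15 differences were 1.90 and 1.90. Against before feeding, ALOX5AP at 24 h was 1.27 (adjusted p = 0.0492, limma) and PTGR1 1.25 (adjusted p = 0.0444, limma), which relative to the median were 0.28 and 0.26. At 24 h against before feeding, 5821 of the 19783 tested probes passed with this centring, 5818 of them higher. ALOX15 was 1.25 (adjusted p = 0.0786, limma) and PTGS2 1.31 (adjusted p = 0.119, limma) in that comparison and did not pass, and relative to the median they were 0.26 and 0.31. Between 24 h and 6 h, this centring gave -0.90 for ALOX5AP (adjusted p = 0.164, limma) and -0.92 for ALOX15 (adjusted p = 0.217, limma), or -1.59 and -1.60 relative to the median.

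The genes whose levels ran most like the members' were sought among 1190 other named genes, by Pearson's r over 9 arrays and with no test. For ALOX5AP they were TLR2, a receptor for bacterial lipoproteins (r = 0.993), TNFRSF1A, a receptor for tumour necrosis factor (r = 0.989), and TREM1, a receptor that amplifies myeloid responses (r = 0.989). In 6 h against before feeding these differed by 1.93 ± 0.46, 1.75 ± 0.44 and 2.03 ± 0.45 (SE). For ALOX15 they included ALOX5AP itself (r = 0.979) and TNFRSF1A (r = 0.971).

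PTGS2 ran with other genes. Its closest were ANXA1, a protein that restrains phospholipase A2 (r = 0.953), FDX1, a mitochondrial electron carrier (r = 0.916), and P4HA1, an enzyme of collagen synthesis (r = 0.905). With the members its r over the 9 arrays was 0.419 for ALOX5AP, 0.476 for ALOX15 and 0.611 for PTGR1, and 0.214, 0.330 and 0.516 within groups. PTGR1 and ALOX5AP had an r of 0.847, and of 0.696 within groups.

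Of the blood cell markers, those of neutrophils and monocytes ran with ALOX5AP and ALOX15, and those of the other cell types did not. The part of any marker in the results was not tested. In whole blood, more cells of a type and more RNA per cell cannot be told apart, nor can fewer cells and less RNA per cell. Neutrophil markers, 5 of 22 tested (LTF, MMP9, NCF1, PGLYRP1 and TREM1), averaged -0.39 to 0.30 relative to their mean before feeding on the arrays of that time, 2.21, 1.22 and 3.28 on the 6 h arrays, and 0.56, 0.65 and 0.33 on the 24 h arrays. All 5 were higher in value in 6 h against before feeding, with a median difference of 2.03 and 3 at an unadjusted p under 0.05 (limma). Monocyte markers, 6 of 14 tested, averaged -0.23 to 0.27 before feeding, 1.64, 1.03 and 2.66 on the 6 h arrays, and 0.24, 0.46 and 1.42 on the 24 h arrays; FCGR1A and VCAN have probes that were too dim to be tested.

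The averages of both lists were lowest on 6 h replicate 2 and highest on 6 h replicate 3 among the 6 h arrays, as were ALOX5AP and ALOX15. T cell markers, 7 of 14 tested, ran the other way, at -0.80, -0.36 and -1.57 on the 6 h arrays against -0.13 to 0.23 before feeding. Eosinophil, basophil and mast cell markers, 3 of 14 tested (CCR3, MS4A2 and GATA2), averaged 0.18, 0.52 and 0.07 on the 6 h arrays and -0.15 to 0.21 before feeding. Platelet markers, 6 of 16 tested, averaged -0.07 to 0.97 on the 6 h arrays and -1.24 to 1.21 before feeding. NK cell markers, 3 of 8 tested, averaged -1.53 to -0.31 at 6 h and -0.67 to 0.66 before feeding, and the single red cell marker tested was HBE1. No marker passed over all tested probes in any comparison (limma), and in 6 h against before feeding 9 of 32 were higher and 5 lower at an unadjusted p under 0.05, against 14.7% and 10.9% of all tested probes.

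**Figure D3:**
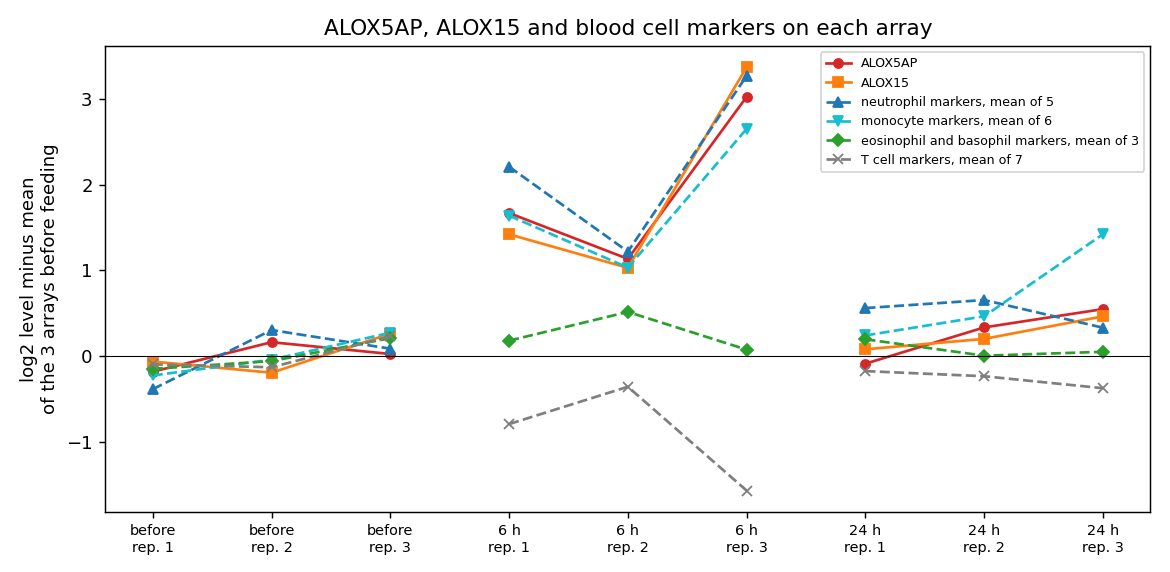
The x axis lists the 9 arrays by time and replicate, and the y axis is log2 level minus the mean of the 3 arrays before feeding. Solid lines are ALOX5AP and ALOX15, and dashed lines are means over the tested markers of a cell type; lines join arrays of 1 time only to guide the eye. On 6 h replicate 3, ALOX5AP is at 3.03, ALOX15 at 3.38, neutrophil markers at 3.28 and monocyte markers at 2.66, while T cell markers are at -1.57.

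Among 83 other genes of the pathway, 31 have a named probe and 24 were tested. None passed in any comparison (limma). In 6 h against before feeding 17 of the 24 were higher in value and 7 lower, where 52.6% of all tested probes were higher, with a median of 0.41. At an unadjusted p under 0.05, 3 were higher, against 14.7% of all tested probes, and none lower, against 10.9%. At 24 h, 18 were higher and 6 lower than before feeding with a median of 0.18, where 49.1% of all tested probes were higher. At an unadjusted p under 0.05, 1 was higher (PLA2G4A) and 1 lower (FAM213B, a prostaglandin F synthase, at -0.65 ± 0.27, adjusted p = 0.328, limma), against 5.32% and 8.56% of all tested probes.

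The list for phospholipase A2 and the release of arachidonic acid, the first step of the pathway, held 5 tested genes. In 6 h against before feeding 4 of them were higher in value and 1 lower, with a median of 0.49. PLA2G7, which breaks down platelet-activating factor, differed by -0.76 ± 0.51 (adjusted p = 0.366, limma). PLA2G4A, the cytosolic phospholipase A2 that frees arachidonic acid, differed by 0.69 ± 0.46 (adjusted p = 0.357, limma), and by 1.31 ± 0.46 in 24 h against before feeding (adjusted p = 0.284, limma). The PLA2G4A probe read 1.18, -0.11 and 0.74 before feeding, 0.97, 1.45 and 1.48 at 6 h, and 1.33, 1.502 and 2.90 at 24 h. Highest was 24 h replicate 3, the array with the largest share of spots well above background. The 24 h arrays all lay above those before feeding. The same lack of overlap, with 24 h higher, was seen in 7.5% of all tested probes.

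Of 5 tested enzymes that form or convert prostaglandins or thromboxane, 1 was higher in value and 4 lower in 6 h against before feeding. Their median was -0.11. The higher one was TBXAS1, thromboxane synthase, at 0.75 ± 0.40 (adjusted p = 0.263, limma), and CBR1, a carbonyl reductase that acts on prostaglandin E, was at -0.35 ± 0.28 (adjusted p = 0.453, limma). PTGES and PTGIS, the prostaglandin E and prostacyclin synthases, were well above background on 0 arrays. Among prostanoid receptors only PTGER3, a receptor for prostaglandin E, could be tested, at 0.68 ± 0.43 (adjusted p = 0.334, limma).

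Of 5 tested enzymes that act beside the leukotriene-forming lipoxygenases, 3 were higher in value and 2 lower in 6 h against before feeding, with a median of 0.04. GGT1, which trims leukotriene C4, differed by 0.65 ± 0.61 (adjusted p = 0.516, limma), and MGST3, a membrane glutathione transferase, by -0.40 ± 0.27 (adjusted p = 0.377, limma). The receptors for cysteinyl leukotrienes were at 0.32 ± 0.47 for CYSLTR1 (adjusted p = 0.698, limma) and 0.02 ± 0.31 for CYSLTR2 (adjusted p = 0.975, limma). ALOX5, the enzyme that ALOX5AP serves, has no probe by name and was not analysed here.

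Regulators of the pathway had the highest median of the pathway lists at 6 h. All 6 tested, ANXA1, ANXA2, TNF, NFKB1, RELA and CEBPB, were higher in value in 6 h against before feeding, with a median of 1.07. Of all tested probes 52.6% were higher in value there. At an unadjusted p under 0.05 (limma) 3 of the 6 were higher (ANXA2, CEBPB and NFKB1), against 14.7% of all tested probes. CEBPB, a transcription factor of myeloid and inflammatory genes, differed by 2.10 ± 0.50 (adjusted p = 0.0773, limma), with levels of 6.39, 7.12 and 8.59 at 6 h against 5.04, 5.41 and 5.34 before feeding. ANXA2, a membrane-binding annexin, differed by 1.19 ± 0.35 (adjusted p = 0.0944, limma), with 7.18, 7.45 and 8.07 at 6 h against 6.02, 6.46 and 6.65 before feeding. In both genes the groups did not overlap and 6 h replicate 3 was highest, as in ALOX5AP and ALOX15. Groups did not overlap, with 6 h higher, in 16% of all tested probes.

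**Figure D4:**
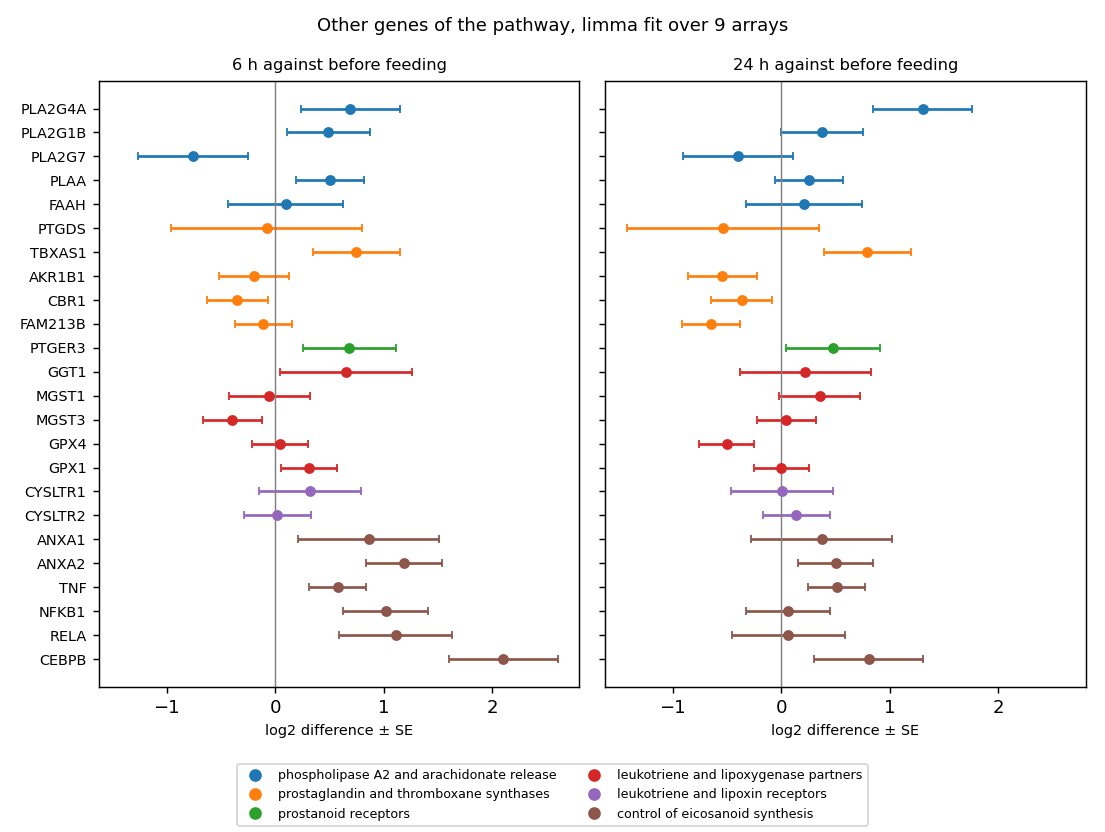
Each row is 1 of the 24 tested other pathway genes, coloured by list, and the x axis is the log2 difference against before feeding, at 6 h on the left and at 24 h on the right; bars are ± SE from the limma fit (n = 3 arrays a group). At 6 h CEBPB lies highest at 2.10 and PLA2G7 lowest at -0.76, and at 24 h PLA2G4A lies highest at 1.31; none of these passed the threshold.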

How the data were processed

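Whole blood RNA was labelled with Cy3 and hybridised to 1-colour Agilent porcine arrays, per the labels' protocols. The deposited scanner files hold spot intensity from which, per the file headers, background was subtracted without scaling arrays to each other. Feature Extraction is given as version 10.5.1.1 in the file headers but as 9.5.3.1 by the submitters' processing notes. The deposited series-wide values are intensity on a linear scale and were used, as log2, only as an alternative.

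Control spots and outlier spots were left out and spots of a probe averaged. From the deposited intensity, log2 values were computed, minus each array's 75th percentile over 43596 probes. The test covered the 19783 probes that stood well above background on every array of some group. It was limma (3.58.1, in R 4.3.3), fitted to all 9 arrays with the group alone in the model (6 residual degrees of freedom, 4.61 prior), with a threshold of 0.05 on the adjusted p. The script was tested on simulated data. The number of arrays limits precision. Files were joined and plots drawn with the R package data.table (1.17.8) and with Python 3.11.15, pandas 2.3.3, numpy 2.4.6 and matplotlib 3.10.9.

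The members, the gene lists and the tests were chosen with earlier results of these data known. Every member probe is accounted for. Of a gene's tested probes the one with the highest mean stands for it. The 3 named genes with the highest Pearson's r, and the 2 genes per pathway list with the largest difference at 6 h plus any that passed, are named; PLA2G4A and FAM213B at 24 h and the names of members of short lists were added after values were seen. Some genes that the rule names are left out of the text. Symbols came from the files and the RefSeq annotation (Sscrofa11.1) for 6.78% of probes; other probes are unnamed here. The files name no genome build, so no positions are given. Alternatives were other scalings, filters, fits, arrays left out and a replicate block.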

Additional observations from a re-analysis of the deposited data

How the results depend on the processing

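Of 234 recomputed changes of ALOX5AP, ALOX15, PTGR1 and PTGS2, 219 kept their direction and side of the threshold. Of the rest, 10 passed only under the alternative and 5 changed sign. Causes were not tested. Many alternatives could not change a sign, because they leave the estimate as it was. These were the filters, the trend and robust fit, the replicate block, the 6 arrays compared alone, and leaving out an array of the time not compared. ALOX5AP at 6 h against before feeding ranged from 1.40 to 2.35 over 20 alternatives (adjusted p = 0.0221 to 0.202, limma), and ALOX15 from 1.23 to 2.40 over 19 (adjusted p = 0.0271 to 0.227, limma). In 24 h against 6 h, PTGR1 (0.3001) and PTGS2 (0.4256) changed sign with spike-in centring, where the median of all tested probes was 0.69. In 24 h against before feeding, PTGS2 (-0.0507) did so without before feeding replicate 2. PTGR1 (-0.0417) and PTGS2 (-0.1723) did so in the same comparison without 24 h replicate 3. Over all arrays left out in that comparison, PTGR1 ran from -0.0417 to 0.4516 and PTGS2 from -0.1723 to 0.7944.

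In 6 h against before feeding, the 5 probes past the threshold became 8 with quantile normalization, 8 with the deposited series-wide values, 613 (607 higher) with spike-in centring, and 0 with the percentile taken over detected probes, normexp with quantile, no filter, the filter on all 9 arrays, the trend and robust fit, or only the 6 arrays compared. With the replicate block they became 620 (537 higher), 3 of them member probes, and ALOX5AP and ALOX15 passed (adjusted p = 0.0419 and 0.047, limma); the block changed no other call of a member gene. The labels do not say whether equal numbers mark pairs, and the deviations did not settle it: those of same-numbered arrays correlated between -0.199 and 0.642, and those of other pairs between -0.625 and 0.431. Leaving out 1 array gave 0 to 2396 probes and 0 to 3 member probes in 6 h against before feeding, the highest without 6 h replicate 2, and 25 probes without 24 h replicate 3. In 24 h against before feeding, 0 probes became 6 with quantile normalization, 6 with the deposited values, and 5821 (5818 higher) with spike-in centring. Spike-in centring brought 3 member probes past the threshold in 6 h and 3 in 24 h against before feeding. In 24 h against 6 h, leaving out 1 array gave 0 to 1767 probes and 0 to 3 member probes, the highest without 6 h replicate 2. Signal limits PTGS1, which was not well above background on any array, and the second PTGS2 probe.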
